A study of Mus musculus with 9 samples.

Results

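Mouse zinc finger protein genes with a numbered Zfp symbol were followed in Eµ-Myc lymphoma cells exposed to a BET inhibitor. Identifiers were matched to symbols of the GENCODE M21 annotation. A gene was kept when its symbol was Zfp followed only by a number, apart from Zfp36 and Zfp473, and when its mean over all 9 libraries reached 5 CPM (counts scaled to the gene counts of the library), with spike-in rows left out. Of 373 such symbols in the table, 133 were kept, 238 lay under 5 CPM and 2 were left out by name. The 133 members were part of 11002 genes tested and of 43629 gene rows. The members just inside the threshold were Zfp513 (5.05 CPM), Zfp68 (5.13 CPM) and Zfp46 (5.33 CPM), and the nearest genes outside it were Zfp566 (4.84 CPM), Zfp821 (4.81 CPM) and Zfp219 (4.80 CPM).

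The cells were a B-cell lymphoma line, clone 4242, grown in vitro. Its parent mice carry a Myc transgene under the immunoglobulin heavy chain enhancer, which acts in B-lineage cells, so every group shared that transgene. Cells received RG6146 at 2.5 µM, JQ1 at 1 µM or the DMSO vehicle for 2 h, with 3 replicate libraries of each. RG6146 and JQ1 are both inhibitors of BET bromodomain proteins, which bind acetylated histones, and they were used at different doses. All libraries came from 1 clone, so the p-values describe the spread between its replicate libraries. The labels do not say whether the replicates were separate cultures. Libraries were 3′ mRNA libraries, in which a transcript gives about 1 read near its polyadenylated end whatever its length.

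Most of these proteins carry C2H2 zinc fingers, small folds around a zinc ion that stand in tandem and read DNA. Many also carry a KRAB domain, which recruits the corepressor TRIM28 and through it the histone methyltransferase SETDB1 and HP1 proteins, and such proteins are known for silencing transposable elements. KRAB zinc finger genes have spread by duplication and stand in clusters. Others in the family have no KRAB domain and act in transcription, splicing, ribosome assembly or chromatin.

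Libraries held 3410161 to 5031717 gene counts, of which 12957 to 19966 belonged to the 133 genes. The members together took 0.343% to 0.355% of gene counts under RG6146, 0.337% to 0.343% under JQ1 and 0.380% to 0.400% under DMSO. Summed markers of cell types were set beside these shares. The 13 B cell identity genes summed to 955 to 1120 CPM under RG6146, 966 to 1039 CPM under JQ1 and 1316 to 1531 CPM under DMSO. They did not move as 1: 8 (61.5%) were lower after RG6146 and 6 (46.2%) after JQ1, and 0 were higher. Of all tested genes 13.5% and 15.4% were lower. Ighm, the gene of the list with the highest level, was not called, with means of 390 CPM under RG6146, 387 CPM under JQ1 and 381 CPM under DMSO. The 14 myeloid markers summed to 88.6 to 133 CPM under RG6146, 58.0 to 292 CPM under JQ1 and 170 to 787 CPM under DMSO, so the JQ1 and DMSO sums overlapped, and Csf1r, one of them, was higher with both compounds. The 17 T and NK cell markers summed to 12 to 12.2 CPM under RG6146, 7.82 to 17.1 CPM under JQ1 and 26.6 to 32.3 CPM under DMSO. That sum was mostly Cd247, with means of 5.23 CPM under RG6146, 6.10 CPM under JQ1 and 18.7 CPM under DMSO, and Cd2. The defining markers Cd3e, Cd3d, Cd3g, Cd4 and Cd8a had 1 to 4 counts each over all 9 libraries, and Trac, Ncr1 and Gzmb had 0. The 11 stromal and endothelial markers summed to 104 to 111 CPM under RG6146, 98.4 to 101 CPM under JQ1 and 132 to 143 CPM under DMSO; nearly all of this was Vim and Pecam1, with Dcn at 0 and the collagen genes of the list at 1 to 4 counts each. The 8 erythroid markers, at 3.53 to 19.5 CPM, and the 37 mitochondrially encoded genes overlapped between groups. The part of the B cell and myeloid differences in the results on zinc finger genes was not tested. In bulk RNA, fewer cells of a type and less RNA per cell cannot be told apart.

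The comparison of each inhibitor with DMSO asked which transcripts differ after brief BET inhibition. More zinc finger genes were lower than higher with both compounds. After RG6146, 25 of the 133 genes fell and 13 rose, which is 18.8% and 9.77% of them. Among all tested genes 13.5% fell and 12.5% rose, and among those of at least 5 CPM 13.8% fell and 14% rose. After JQ1, 33 of the 133 fell and 14 rose, which is 24.8% and 10.5%, against 15.4% lower and 13.6% higher among all tested genes, and 15.9% lower and 15.2% higher among those of at least 5 CPM. A gene was called by edgeR's quasi-likelihood test at an adjusted p below 0.05 over all tested genes. The median log2 fold change of the members was -0.11 for RG6146 and -0.14 for JQ1, while the median of all tested genes was 0.0088 for RG6146 and 0.0046 for JQ1. The median level was 15.2 CPM for members, 20.1 CPM for all tested genes and 28.2 CPM for those of at least 5 CPM. All tested genes of 5 to 10 CPM had a median log2 fold change of -0.08 after RG6146 and -0.0995 after JQ1. Of these, 14.6% fell and 5.98% rose after RG6146, and 17.4% fell and 6.28% rose after JQ1. The part of level in the excess of falls was not tested. Both comparisons used the same 3 DMSO libraries, so they are not independent of each other.

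The 3 treated libraries lay wholly below the 3 DMSO libraries for 39 members after RG6146 and for 44 after JQ1, where 20.8% and 22% of all tested genes did so. They lay wholly above for 21 members after RG6146 and 24 after JQ1, where the background was 20.1% and 20.6%. Scaling by library size without TMM moved the median of all tested genes by -0.11 for RG6146 and -0.13 for JQ1. Under that scaling 5 members rose and 36 fell after RG6146, and 7 rose and 40 fell after JQ1. The count of falls after JQ1 dropped to 19 without JQ1 replicate 2, to 21 without JQ1 replicate 3 and to 20 without DMSO replicate 2. The count of rises after JQ1 was 9 without JQ1 replicate 1 or replicate 3 and 8 without DMSO replicate 3, and after RG6146 it was 7 without RG6146 replicate 1.

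**Figure D1:**
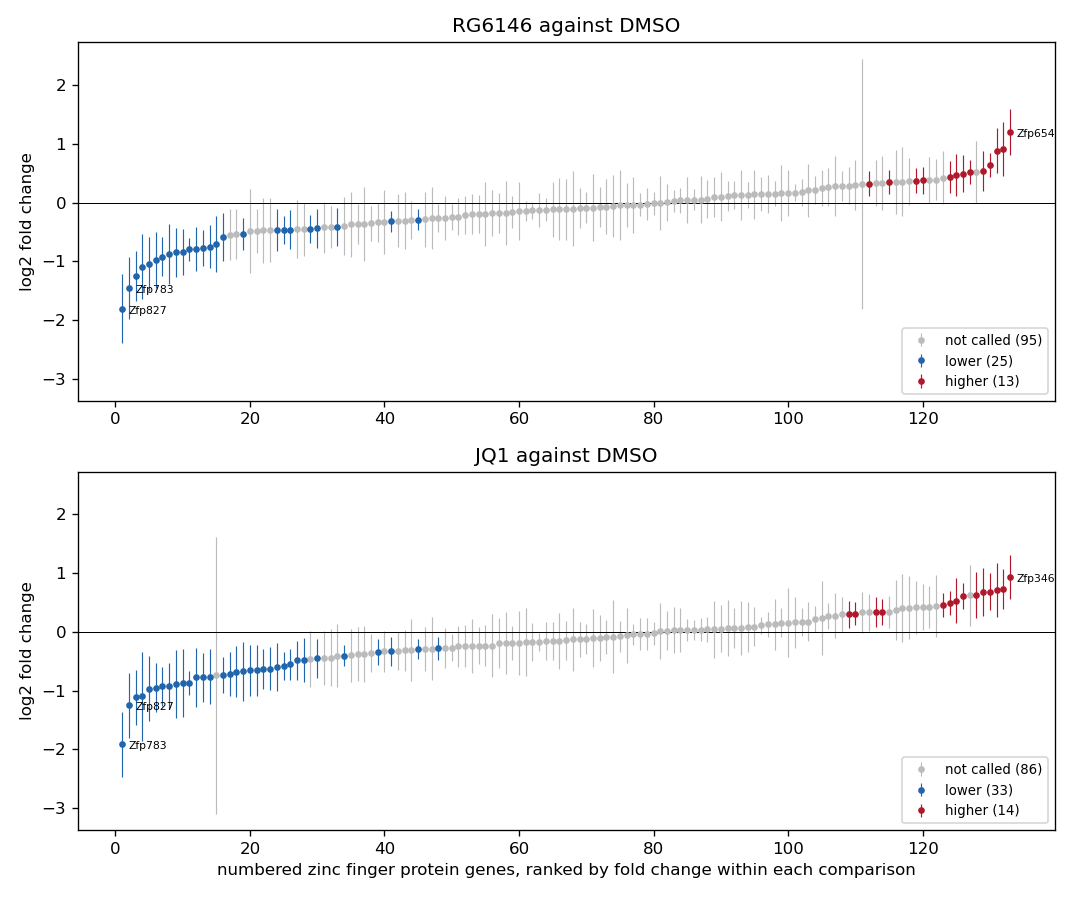
Log2 fold changes of the 133 genes (vertical axis) ranked within each comparison (horizontal axis), with RG6146 against DMSO above JQ1 against DMSO. Points are estimates, bars are 95% intervals and colour marks the call: 25 genes lower and 13 higher after RG6146, 33 lower and 14 higher after JQ1, with most changes within 1 log2 unit of 0 and a single very wide interval, that of Zfp992.

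Promoters are shown for 4 members that moved the same way with both compounds and whose calls held without any one library: Zfp638 and Zfp1, which fell, and Zfp346 and Zfp664, which rose. Each is the RefSeq window on GRCm38.p6 from 250 bases before the start of the gene to 50 bases after it, 5′ to 3′ on the strand of the gene, which is the plus strand for all 4. Capitals mark matches on either strand to 4 motifs. The GC box, known as a site of SP factors, was searched as GGGCGG. The box that NF-Y binds was searched as CCAAT. For the E-box, known as a MYC site, the letters searched were CACGTG. The core of the ZNF143 motif was searched as ACTACAA. The windows are chr6:83914103-83914402 for Zfp638, chr8:111643193-111643492 for Zfp1, chr13:55105059-55105358 for Zfp346 and chr5:124862455-124862754 for Zfp664. The window of Zfp638 starts from the RefSeq start, which lies inside the longer gene of GENCODE M21.
Zfp638: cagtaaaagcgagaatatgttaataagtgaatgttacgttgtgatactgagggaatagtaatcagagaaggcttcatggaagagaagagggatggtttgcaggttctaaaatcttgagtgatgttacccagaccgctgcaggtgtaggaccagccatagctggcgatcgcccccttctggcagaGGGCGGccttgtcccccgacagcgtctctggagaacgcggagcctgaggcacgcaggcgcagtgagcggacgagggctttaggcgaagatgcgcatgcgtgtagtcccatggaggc
Zfp1: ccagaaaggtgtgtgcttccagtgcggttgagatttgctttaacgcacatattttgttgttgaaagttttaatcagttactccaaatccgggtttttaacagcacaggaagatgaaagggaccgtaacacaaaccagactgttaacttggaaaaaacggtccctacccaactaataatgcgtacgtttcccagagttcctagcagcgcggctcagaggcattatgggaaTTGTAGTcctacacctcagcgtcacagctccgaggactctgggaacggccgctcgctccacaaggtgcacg
Zfp346: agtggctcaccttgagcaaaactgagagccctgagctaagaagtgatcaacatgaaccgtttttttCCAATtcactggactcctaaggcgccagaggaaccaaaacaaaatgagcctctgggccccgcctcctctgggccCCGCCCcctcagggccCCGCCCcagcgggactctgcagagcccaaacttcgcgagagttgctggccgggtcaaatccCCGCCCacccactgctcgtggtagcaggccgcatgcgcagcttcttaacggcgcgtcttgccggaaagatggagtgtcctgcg
Zfp664: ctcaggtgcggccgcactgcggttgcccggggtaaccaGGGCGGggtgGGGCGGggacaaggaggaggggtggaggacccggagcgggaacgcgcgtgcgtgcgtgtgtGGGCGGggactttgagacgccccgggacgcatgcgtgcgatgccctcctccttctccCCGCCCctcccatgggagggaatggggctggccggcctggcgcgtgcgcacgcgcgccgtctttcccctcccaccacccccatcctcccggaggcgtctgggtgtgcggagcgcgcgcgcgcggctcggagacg

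The Zfp346 window held 3 GC boxes and 1 CCAAT box, and the Zfp664 window held 4 GC boxes. The Zfp638 window held 1 GC box, and the Zfp1 window held the ZNF143 core and no GC box. Zfp871, which rose, and Zfp827, which fell, also kept both calls without any one library, and their windows are not printed. The falls of Zfp26, Zfp64, Zfp65, Zfp110, Zfp160, Zfp783, Zfp961, Zfp991 and Zfp993 held in the same way, and windows of these are not described. The windows shown are thus a selection and do not stand for all members that fell or rose. The Zfp871 window held 1 GC box, 1 E-box and 2 CCAAT boxes. The Zfp827 window held no GC box and 1 match to TATAAA, the letters of the TATA box. That match was on the strand opposite to the gene, so it is not a TATA box read in the direction of the gene. A RefSeq window was found for 111 of the 133 members. A GC box stood in 52.3% of them, against 35.9% of the windows of all 27025 gene symbols. A CCAAT box stood in 49.5% of the members' windows and 37.9% of all windows. For the E-box the shares were 8.11% and 7.24%, and for the ZNF143 core 4.5% and 3.45%. The letters TATAAA, on either strand and at any position, stood in 6.31% and 14.2%. Members were kept for their level, while the windows of all symbols include genes under 5 CPM. Windows of genes of like level were not counted, so these differences cannot be assigned to the family. No other motif was searched, and no 2 of the 5 share their letters. After RG6146 the ZNF143 core stood in 2 of the 21 windows of members that fell, 0 of the 10 of members that rose and 3 of the 80 of members not called. After JQ1 it stood in 4 of 30 that fell, 0 of 12 that rose and 1 of 69 not called. A GC box stood in 9 of the 21 that fell and 7 of the 10 that rose after RG6146, and in 13 of the 30 that fell and 7 of the 12 that rose after JQ1. These counts describe letters in the windows, and binding was not measured.

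Zfp638 and Zfp827, both without a KRAB core and both linked to chromatin, were among the members whose falls held without any one library. Zfp638 (ENSMUSG00000030016, chromosome 6, 83867109 to 83989550 on mm10) encodes a nucleic acid binding protein that, in human cells, brings the HUSH silencing complex to unintegrated retroviral DNA. Its level was 51.8, 51.2 and 49.8 CPM under RG6146, 51.2, 45.5 and 48.4 CPM under JQ1, and 89.9, 80.7 and 94.6 CPM under DMSO. All 6 treated libraries lay well below the lowest DMSO library. The log2 fold change was -0.80 ± 0.09 (SE, adjusted p = 6.4e-06) for RG6146 and -0.87 ± 0.09 (adjusted p = 2.3e-06) for JQ1, in edgeR's quasi-likelihood test.

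Zfp827 (chromosome 8, 79028437 to 79193766) encodes a protein whose human counterpart recruits the NuRD complex to telomeres. It had 2.50, 2.77 and 4.30 CPM under RG6146, 3.77, 6.16 and 4.17 CPM under JQ1, and 12.9, 9.35 and 11 CPM under DMSO. The treated and DMSO libraries did not overlap, while the RG6146 and JQ1 libraries did. Most treated libraries were under 5 CPM, so Zfp827 reached the member threshold through its DMSO level. The log2 fold change was -1.80 ± 0.28 for RG6146 (adjusted p = 1.1e-04) and -1.25 ± 0.26 for JQ1 (adjusted p = 0.00151).

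Zfp64 encodes a protein that in human leukaemia cells maintains transcription of the MLL gene. It had 8.40, 6.81 and 6.11 CPM under RG6146, 7.55, 8.06 and 6.77 CPM under JQ1, and 11.2, 13.3 and 13.9 CPM under DMSO, with no overlap of treated and DMSO libraries. The fall was -0.84 ± 0.20 for RG6146 (adjusted p = 0.00421) and -0.77 ± 0.20 for JQ1 (adjusted p = 0.00668). Zfp236 fell by 1.09 on the log2 scale after RG6146 and by 0.97 after JQ1; the JQ1 call ended without JQ1 replicate 1 (-0.80, adjusted p = 0.0561). Zfp507 fell by 0.98 after RG6146 and by 0.77 after JQ1, and its JQ1 call ended without JQ1 replicate 2 (-0.70), JQ1 replicate 3 (-0.65) or DMSO replicate 2 (-0.56). For Zfp414 the falls were -0.88 after RG6146 and -0.77 after JQ1. The RG6146 call of Zfp414 ended without DMSO replicate 2 (-0.76), and its JQ1 call ended without JQ1 replicate 2 (-0.56) or DMSO replicate 2 (-0.65).

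The member with the largest fall after JQ1 was Zfp783 (chromosome 6, 47943171 to 47955913), annotated as a transcribed pseudogene, with no protein. It had 3.86, 3.78 and 3.62 CPM under RG6146, 2.94, 3.08 and 2.08 CPM under JQ1, and 12, 8.78 and 9.79 CPM under DMSO. No treated library reached the lowest DMSO library. Every treated library was under 5 CPM, so Zfp783 is a member only through its DMSO level, and its rank among the falls is not independent of the threshold. The log2 fold change was -1.45 ± 0.25 for RG6146 (adjusted p = 3.1e-04) and -1.92 ± 0.26 for JQ1 (adjusted p = 2.8e-05). Zfp783 overlaps Zfp956 on the same strand, so reads of the overlap may not be assigned to a single gene.

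Members with a KRAB core, found by a pattern in the translated protein, numbered 49. After RG6146 9 of them fell and 4 rose, and after JQ1 16 fell and 3 rose. That is 18.4% lower and 8.16% higher after RG6146, and 32.7% lower and 6.12% higher after JQ1. Of the 83 protein-coding members without it, 15 fell and 9 rose after RG6146, and 16 fell and 11 rose after JQ1. That is 18.1% lower and 10.8% higher after RG6146, and 19.3% lower and 13.3% higher after JQ1. The shares of all tested genes were 13.5% lower and 12.5% higher after RG6146, and 15.4% lower and 13.6% higher after JQ1. The medians of the log2 fold change were -0.15 and -0.085 after RG6146 for members with and without the KRAB core, and -0.17 and -0.10 after JQ1. The median level was 10.9 CPM with the core and 17.4 CPM without it. With a mean of at least 10 CPM, 7 of 27 KRAB members fell and 3 rose after RG6146, and 7 fell and 2 rose after JQ1. Among the 65 members of at least 10 CPM without the core, 11 fell and 9 rose after RG6146, and 12 fell and 11 rose after JQ1. At that level, 25.9% with the core fell with each compound, and 11.1% rose after RG6146 and 7.41% after JQ1. Without it, 16.9% fell and 13.8% rose after RG6146, and 18.5% fell and 16.9% rose after JQ1. All tested genes of at least 5 CPM gave 13.8% lower and 14% higher after RG6146, and 15.9% lower and 15.2% higher after JQ1. Under 10 CPM, 2 of 22 KRAB members fell and 1 rose after RG6146, and 9 fell and 1 rose after JQ1. Of the 18 members under 10 CPM without the core, 4 (22.2%) fell and 0 rose with each compound. The shares of the 22 KRAB members that fell were 9.09% after RG6146 and 40.9% after JQ1, and 4.55% rose with each. Of all 1655 tested genes of 5 to 10 CPM, 14.6% fell and 5.98% rose after RG6146, and 17.4% fell and 6.28% rose after JQ1. The difference between the classes was not tested. These counts moved with single libraries. With the core, falls after JQ1 numbered 10 without DMSO replicate 1, rises after JQ1 numbered 5 without DMSO replicate 2, and rises after RG6146 numbered 2 without RG6146 replicate 1 or replicate 3. Without the core, falls after JQ1 numbered 7 to 10 without any JQ1 replicate, DMSO replicate 2 or DMSO replicate 3, and rises after JQ1 numbered 6 or 7 without JQ1 replicate 1, JQ1 replicate 3 or any DMSO replicate. After RG6146, falls without the core numbered 9 without DMSO replicate 2 and rises numbered 5 without RG6146 replicate 1. Under ERCC scaling 3 KRAB members fell and 1 rose after RG6146, and 5 fell and 0 rose after JQ1, while without the core 4 fell and 2 rose after RG6146, and 3 fell and 1 rose after JQ1.

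**Figure D2:**
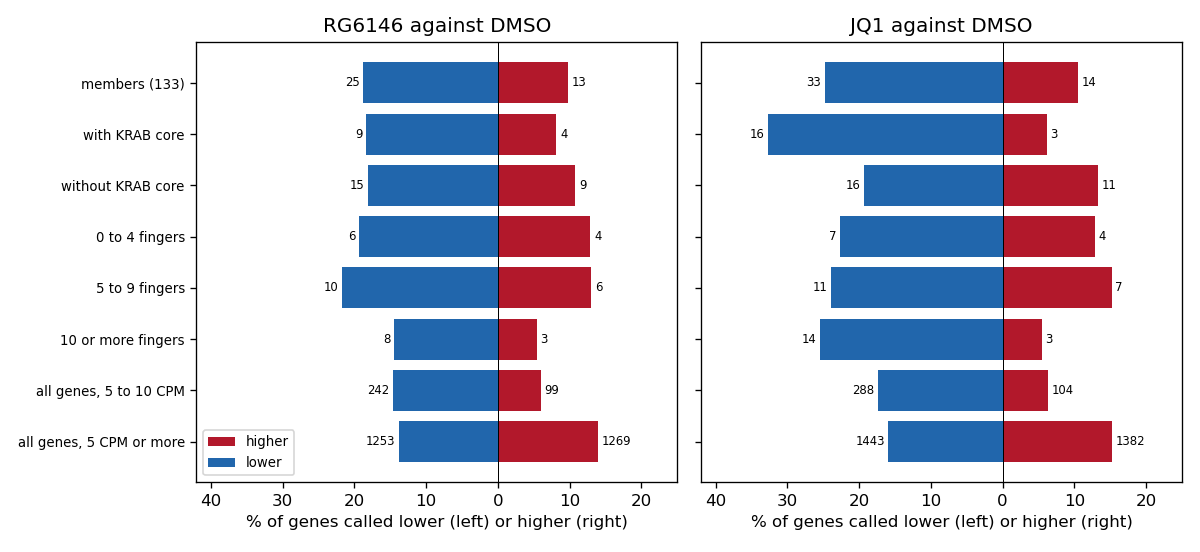
Share of genes called lower (blue, to the left) and higher (red, to the right) in percent, with RG6146 against DMSO on the left and JQ1 against DMSO on the right, and the number of genes printed at each bar. The bar for members with a KRAB core reaches furthest left in the JQ1 panel (16 of 49 genes), while in the RG6146 panel the bars with and without the core are of like length (9 of 49 and 15 of 83).

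Zfp1 (chromosome 8, 111643401 to 111671011) was the KRAB member with the largest fall after RG6146. Its level was 6.81, 5.55 and 6.11 CPM under RG6146, 6.29, 8.06 and 8.59 CPM under JQ1, and 12.6, 17.0 and 14.8 CPM under DMSO. The highest treated library stayed below the lowest DMSO library. The log2 fold change was -1.25 ± 0.20 for RG6146 (adjusted p = 1.9e-04) and -0.95 ± 0.20 for JQ1 (adjusted p = 0.00153). The last 500 bases of the Zfp1 transcript hold a stretch that is near-identical in a transcript of Chpt1.

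Zfp160 had 12.9, 10.6 and 12.9 CPM under RG6146, 11.1, 13 and 12.2 CPM under JQ1, and 26.2, 21.5 and 21.0 CPM under DMSO. The treated libraries were alike and all lay below DMSO. Its fall was -0.92 ± 0.16 (adjusted p = 3.0e-04) after RG6146 and -0.93 ± 0.16 (adjusted p = 2.5e-04) after JQ1. Zfp65 had 5.22, 6.81 and 7.70 CPM under RG6146, 4.82, 6.16 and 8.07 CPM under JQ1, and 14.4, 12.7 and 13.6 CPM under DMSO, without overlap. It fell by 1.05 on the log2 scale after RG6146 and by 1.12 after JQ1. Zfp26, with 22 C2H2 matches in its protein, fell by 0.84 after RG6146 and by 0.92 after JQ1, and none of its 6 treated libraries reached DMSO. Zfp110, chosen after its values were seen, encodes NRIF, a partner of the neurotrophin receptor p75; it fell by 0.77 after RG6146 and by 0.73 after JQ1.

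Several KRAB members passed the test after JQ1 and lost the call when certain single libraries were left out. Zfp984 gave -0.48 after RG6146 (adjusted p = 0.325) and fell by 1.09 after JQ1 (adjusted p = 0.0308); the JQ1 call ended without JQ1 replicate 2 (-0.97), JQ1 replicate 3 (-0.81) or DMSO replicate 2 (-0.79). Zfp790 gave -0.37 after RG6146 and fell by 0.89 after JQ1, a call that ended without JQ1 replicate 2 (-0.70), JQ1 replicate 3 (-0.88), DMSO replicate 1 (-0.83) or DMSO replicate 2 (-0.81). Zfp68, close to the 5 CPM threshold, gave -0.47 after RG6146 and fell by 0.87 after JQ1. It averaged 4.84 CPM under RG6146, 3.69 CPM under JQ1 and 6.72 CPM under DMSO, so it is a member through DMSO alone. Its call ended without JQ1 replicate 1 (-0.84), JQ1 replicate 2 (-0.76), DMSO replicate 1 (-0.77) or DMSO replicate 2 (-0.78).

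KRAB members that rose included Zfp809, which in mouse recognises the primer binding site of murine leukaemia virus and recruits TRIM28 to it. Its level was 21.1, 17.9 and 22.4 CPM under RG6146, 28.1, 20.9 and 20.8 CPM under JQ1, and 12.6, 15.0 and 15.0 CPM under DMSO. All treated libraries lay above all DMSO libraries. The rise was 0.54 ± 0.16 for RG6146 (adjusted p = 0.0212) and 0.72 ± 0.16 for JQ1 (adjusted p = 0.00254). The RG6146 call ended without RG6146 replicate 1 (0.52), RG6146 replicate 3 (0.47) or DMSO replicate 1 (0.45).

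Zfp871 had 54.5, 54.2 and 53.4 CPM under RG6146, 56.2, 50.02 and 49.2 CPM under JQ1, and 36.7, 39.4 and 37.5 CPM under DMSO. Its libraries were tight within groups, and the treated ones were all higher. It rose by 0.51 ± 0.10 on the log2 scale after RG6146 (adjusted p = 7.1e-04) and by 0.45 ± 0.10 after JQ1 (adjusted p = 0.00181). Zfp850, with 16 C2H2 matches, had 9.77, 9.58 and 10.6 CPM under RG6146, 8.60, 8.77 and 8.86 CPM under JQ1, and 6.37, 5.38 and 4.06 CPM under DMSO. No library of the treated groups fell into the DMSO range. Its rise was 0.91 ± 0.22 for RG6146 and 0.72 ± 0.22 for JQ1, and the JQ1 call ended without DMSO replicate 3 (0.56, adjusted p = 0.0858).

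Outside the KRAB class, the largest rise after RG6146 was that of Zfp654. It had 15.2, 12.9 and 15.2 CPM under RG6146, 10.7, 9.72 and 9.64 CPM under JQ1, and 6.74, 6.80 and 5.25 CPM under DMSO. The 3 groups did not overlap, with RG6146 highest and DMSO lowest. The log2 fold change was 1.20 ± 0.19 for RG6146 (adjusted p = 1.3e-04) and 0.68 ± 0.19 for JQ1 (adjusted p = 0.0140). The JQ1 call of Zfp654 ended without JQ1 replicate 1 (0.63) or DMSO replicate 3 (0.57).

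Zfp346 (chromosome 13, 55105311 to 55134825), which encodes JAZ, a zinc finger protein that binds double-stranded RNA, rose most after JQ1. It had 14.8, 14.4 and 14.7 CPM under RG6146, 13.8, 15.4 and 16.1 CPM under JQ1, and 6.74, 9.91 and 7.40 CPM under DMSO. The lowest treated library was above the highest DMSO library. The rise was 0.89 ± 0.18 for RG6146 (adjusted p = 0.00131) and 0.93 ± 0.18 for JQ1 (adjusted p = 7.5e-04). Zfp664 had 56.6, 50.9 and 54.6 CPM under RG6146, 46.5, 50.02 and 49 CPM under JQ1, and 34.7, 36.3 and 33.0 CPM under DMSO, again without overlap of treated and DMSO libraries. It rose by 0.64 ± 0.10 after RG6146 and by 0.49 ± 0.10 after JQ1.

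Zfp703, whose human counterpart is an oncogene of luminal breast cancer and a transcriptional corepressor, had 62.0, 57.2 and 59.3 CPM under RG6146, 80.7, 66.1 and 63.0 CPM under JQ1, and 42.5, 46.5 and 48.5 CPM under DMSO. Here JQ1 was the highest group, and no 2 groups overlapped. The rise was 0.38 ± 0.11 for RG6146 (adjusted p = 0.0137) and 0.61 ± 0.11 for JQ1 (adjusted p = 3.1e-04), and the RG6146 call ended without RG6146 replicate 1 (0.35) or DMSO replicate 1 (0.33). Zfp212 rose by 0.49 after RG6146 and by 0.68 after JQ1, with its RG6146 call lost without RG6146 replicate 3 (0.41), DMSO replicate 1 (0.49) or DMSO replicate 3 (0.45). Zfp672 gave 0.36 after RG6146 (adjusted p = 0.182) and rose by 0.63 after JQ1, a call that ended without JQ1 replicate 3 (0.58) or DMSO replicate 2 (0.48). Zfp263 rose by 0.43 after RG6146 and gave 0.35 after JQ1 (adjusted p = 0.0536). The RG6146 call of Zfp263 ended without RG6146 replicate 1 (0.37), RG6146 replicate 2 (0.42) or DMSO replicate 3 (0.41).

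**Figure D3:**
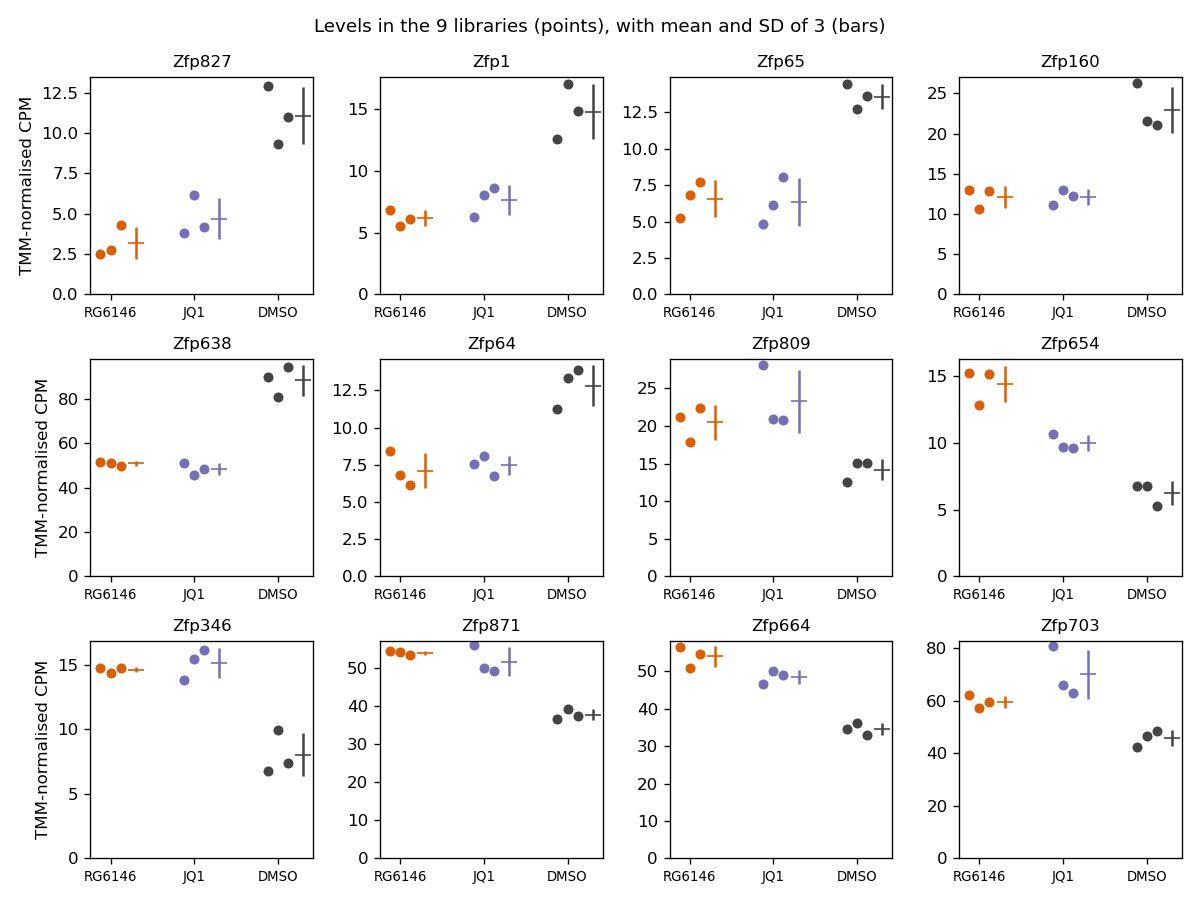
TMM-normalised CPM (vertical axes, from 0) of 12 members in the 9 libraries, with RG6146, JQ1 and DMSO from left to right; points are libraries, and each bar gives the mean and SD of 3. In the first 6 panels all treated points lie below all DMSO points and in the last 6 all lie above, while Zfp654 stands higher under RG6146 than under JQ1 and Zfp703 the other way round.

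The members with the highest levels changed little or not detectably. Levels of different genes are compared here as CPM of 3′ reads, which do not scale with transcript length. Zfp106, an RNA-binding protein needed for motor neurons in mice, had 284, 275 and 294 CPM under RG6146, 282, 271 and 269 CPM under JQ1 and 253, 260 and 246 CPM under DMSO. Its treated libraries lay just above DMSO, at 0.17 for RG6146 (adjusted p = 0.0820) and 0.12 for JQ1 (adjusted p = 0.225). Zfp207 encodes BuGZ, a BUB3 partner in mitosis, and its log2 fold change was -0.13 after RG6146 (adjusted p = 0.193) and -0.17 after JQ1 (adjusted p = 0.0836).

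Zfp91, a ubiquitin ligase that acts on the kinase NIK, had 168, 173 and 161 CPM under RG6146, 178, 151 and 182 CPM under JQ1, and 215, 204 and 208 CPM under DMSO. Every treated library was lower than every DMSO library. It fell by 0.32 on the log2 scale after RG6146 (adjusted p = 0.00711) and by 0.30 after JQ1 (adjusted p = 0.0110), and the JQ1 call ended without JQ1 replicate 2 (-0.21). Zfp706, a repressor of Klf4 in mouse embryonic stem cells, fell by 0.29 after RG6146 and by 0.40 after JQ1. The RG6146 call of Zfp706 ended without RG6146 replicate 2 (-0.26), RG6146 replicate 3 (-0.26) or DMSO replicate 1 (-0.22), and its transcript end is near-identical to transcripts of 3 other genes. Zfp292, the fifth most abundant member, gave 0.05 after RG6146 and 0.03 after JQ1.

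Of the members with roles in B cells and in lymphocyte or lineage control, Zfp318 promotes IgD expression in mature B cells. It had 56.8, 60.5 and 51.6 CPM under RG6146, 49.1, 51.4 and 56.5 CPM under JQ1, and 44.6, 40.2 and 45.4 CPM under DMSO. The treated libraries lay above DMSO, by 0.37 ± 0.10 for RG6146 (adjusted p = 0.0117) and 0.27 ± 0.10 for JQ1 (adjusted p = 0.0606). The RG6146 call of Zfp318 ended without RG6146 replicate 2 (0.32) or DMSO replicate 2 (0.33). Zfp335, needed for T cell maturation and neurogenesis in mice, fell by 0.70 after RG6146 and gave -0.44 after JQ1 (adjusted p = 0.146). Its RG6146 libraries, at 10.4, 10.6 and 19.5 CPM, overlapped the DMSO libraries, at 17.8, 23.8 and 24.8 CPM, and the call ended without RG6146 replicate 1 (-0.54), RG6146 replicate 2 (-0.56), DMSO replicate 2 (-0.64) or DMSO replicate 3 (-0.60). Zfp335 overlaps Pcif1 and Zfp335os on the opposite strand, and the counting is not stated to use strand.

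Of 5 members with roles in splicing and at the ribosome, Zfp326 and Zfp830 passed the test with JQ1, and Zfp622, Zfp593 and Zfp598 did not pass with either compound. Zfp830, linked to splicing, gave 0.18 after RG6146 (adjusted p = 0.259) and rose by 0.30 after JQ1 (adjusted p = 0.0480), a call that ended when any of 6 of the 9 libraries was left out. Zfp326 encodes a subunit of the DBIRD complex, which links transcription elongation with splicing. It gave -0.24 after RG6146 (adjusted p = 0.103) and fell by 0.34 after JQ1 (adjusted p = 0.0239), a call that ended without JQ1 replicate 2 (-0.26), DMSO replicate 2 (-0.34) or DMSO replicate 3 (-0.31). Zfp622 and Zfp593, whose yeast counterparts act in maturation of the large ribosomal subunit, gave -0.09 and -0.03 after RG6146 and -0.07 and -0.02 after JQ1. Zfp598, the ubiquitin ligase that marks collided ribosomes, gave 0.13 after RG6146 and 0.16 after JQ1.

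Other members with known roles gave both calls and values that did not pass. Zfp148 and Zfp281, a related pair of factors that bind GC-rich DNA, gave -0.14 and 0.15 after RG6146 and -0.04 and 0.09 after JQ1. Zfp143, an activator at promoters and chromatin loop anchors, gave -0.18 after RG6146 (95% interval -0.57 to 0.22) and -0.10 after JQ1 (-0.49 to 0.29). Zfp131, a BTB domain factor, rose by 0.35 after RG6146 and by 0.31 after JQ1. The RG6146 call of Zfp131 ended without RG6146 replicate 1 (0.30), and its JQ1 call ended without JQ1 replicate 1 (0.25), JQ1 replicate 3 (0.29), DMSO replicate 2 (0.29) or DMSO replicate 3 (0.27). Zfp217, whose human counterpart is amplified in breast cancer, fell by 0.42 after RG6146 (adjusted p = 0.0498) and gave -0.24 after JQ1 (adjusted p = 0.255). Zfp609, a partner of the cohesin loader NIPBL and of Integrator, fell by 0.44 after RG6146 (adjusted p = 0.0492) and gave -0.32 after JQ1 (adjusted p = 0.132). Zfp296, a factor of mouse embryonic stem cells, rose by 0.47 after RG6146 (adjusted p = 0.0490) and gave 0.33 after JQ1 (adjusted p = 0.158). The RG6146 calls of Zfp217 and Zfp296 each ended when any of 7 of the 9 libraries was left out, and that of Zfp609 with any of 8. Zfp644, a partner of the G9a methyltransferase in human cells, gave 0.04 with each compound. Zfp445, a KRAB protein that guards genomic imprints, gave -0.08 after RG6146 and -0.18 after JQ1, with an adjusted p of 0.862 and 0.677.

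Members of the Z3 chromatin complex and their partner Zmynd8, a reader of acetylated histones, differed in direction. Zmynd8 fell by 1.64 ± 0.10 (SE) on the log2 scale after RG6146 and by 1.80 ± 0.10 after JQ1. Its level averaged 35.6 ± 2.50 CPM under RG6146, 31.8 ± 2.78 CPM under JQ1 and 111 ± 2.37 CPM under DMSO (SD, n = 3 each). Zfp687 gave 0.33 ± 0.18 after RG6146 (adjusted p = 0.202) and rose by 0.53 ± 0.18 after JQ1 (adjusted p = 0.0376). The JQ1 call of Zfp687 ended without JQ1 replicate 1 (0.53), JQ1 replicate 3 (0.42), DMSO replicate 1 (0.52) or DMSO replicate 3 (0.45). Zfp592 gave 0.15 after RG6146 and 0.22 after JQ1, neither called, and the further member Zfp532 was under 5 CPM. Zfp410, known as an activator of Chd4, gave 0.14 after RG6146 and 0.09 after JQ1 and was not called, while Chd4 rose by 0.39 ± 0.08 after RG6146 and by 0.41 ± 0.08 after JQ1. Zfp451, a SUMO ligase that works with TDP2 on trapped topoisomerase, gave 0.02 after RG6146 and 0.03 after JQ1; Tdp2 rose by 0.56 ± 0.11 after RG6146 and by 0.54 ± 0.11 after JQ1. Of the 14 listed partners of single members, 5 rose (35.7%) and 1 fell (7.14%) with each compound, and their median level was 52.7 CPM. Among all tested genes, with a median level of 20.1 CPM, 12.5% rose and 13.5% fell after RG6146. After JQ1 13.6% of all tested genes rose and 15.4% fell.

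The machinery that KRAB proteins recruit moved in both directions. Of 38 tested genes of a list of KRAB corepressor and heterochromatin factors, 8 rose and 6 fell after RG6146, and 11 rose and 8 fell after JQ1. These are 21.1% and 15.8% after RG6146, against 12.5% higher and 13.5% lower among all tested genes, and 28.9% and 21.1% after JQ1, against 13.6% and 15.4%. The median level of the list was 64.8 CPM, and that of all tested genes 20.1 CPM. Trim28, the corepressor itself, had 171, 171 and 168 CPM under RG6146, 178, 169 and 186 CPM under JQ1, and 125, 119 and 132 CPM under DMSO. All treated libraries were higher, by 0.44 ± 0.08 for RG6146 (adjusted p = 3.1e-04) and 0.51 ± 0.08 for JQ1 (adjusted p = 7.4e-05). The deacetylase gene Hdac1 rose by 0.39 after RG6146 and by 0.47 after JQ1. Smarcad1, a chromatin remodeller bound by TRIM28, fell by 0.51 after RG6146 and by 0.72 after JQ1.

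Genes of the HUSH complex, the partner of Zfp638 in human cells, did not all move alike. Fam208a, which encodes its subunit TASOR, had 24.3, 18.7 and 22.0 CPM under RG6146, 21.6, 23.0 and 16.9 CPM under JQ1, and 38.4, 32.9 and 33.0 CPM under DMSO. No treated library reached the DMSO range, and the fall was -0.68 ± 0.14 (adjusted p = 0.00157) for RG6146 and -0.76 ± 0.14 (adjusted p = 6.0e-04) for JQ1. The other genes of this complex and its effector were chosen after their values were seen. Mphosph8, the chromodomain subunit, fell by 0.37 after RG6146 and by 0.56 after JQ1, and its RG6146 call ended without RG6146 replicate 3 (-0.28), DMSO replicate 1 (-0.34) or DMSO replicate 3 (-0.33). Pphln1, which encodes periphilin, gave 0.06 with each compound and was not called, and the effector Morc2a rose by 0.52 after RG6146 and by 0.62 after JQ1. The methyltransferase gene Setdb1 gave -0.23 after RG6146 (adjusted p = 0.113) and fell by 0.31 after JQ1 (adjusted p = 0.0308), a call that ended without any single one of the JQ1 replicates (-0.33 to -0.28), without DMSO replicate 1 (-0.26) or without DMSO replicate 2 (-0.25). Under ERCC scaling both Trim28 calls ended, at an adjusted p of 0.239 for RG6146 and 0.176 for JQ1. So did the calls of Hdac1, Chd4, Tdp2, Morc2a, Mphosph8 and Setdb1 and the RG6146 calls of Fam208a and Smarcad1, while both Zmynd8 calls and the JQ1 calls of Fam208a and Smarcad1 held. With the replicate number also fitted as a block, the calls just listed as ended held under ERCC scaling, except that of Setdb1 (adjusted p = 0.0606).

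Chromosomal position and finger number were set beside the calls. The 133 genes stood on 19 chromosomes, 33 of them on chromosome 7, of which 4 fell and 3 rose after RG6146, and 7 fell and 2 rose after JQ1. These are 12.1% and 9.09% after RG6146, and 21.2% and 6.06% after JQ1. Among all tested genes 13.5% fell and 12.5% rose after RG6146, and 15.4% fell and 13.6% rose after JQ1. With 10 or more C2H2 matches in the protein, 8 of 55 members fell and 3 rose after RG6146, and 14 fell and 3 rose after JQ1. These are 14.5% and 5.45% after RG6146, and 25.5% and 5.45% after JQ1. With 5 to 9 matches, 10 of 46 fell and 6 rose after RG6146, and 11 fell and 7 rose after JQ1. These are 21.7% and 13% after RG6146, and 23.9% and 15.2% after JQ1. With 0 to 4 matches, 6 of 31 fell and 4 rose after RG6146, and 7 fell and 4 rose after JQ1. The median level was 12.5 CPM with 10 or more matches, 15.1 CPM with 5 to 9 and 32.2 CPM with 0 to 4. A numbered Zfp gene lay within 200 kb of 69 members; 11 of these fell and 6 rose after RG6146, and 19 fell and 6 rose after JQ1. Among the 64 members without such a neighbour, 14 fell and 7 rose after RG6146, and 14 fell and 8 rose after JQ1. With a neighbour, 15.9% fell and 8.7% rose after RG6146, and 27.5% fell and 8.7% rose after JQ1. Without one, 21.9% fell and 10.9% rose after RG6146, and 21.9% fell and 12.5% rose after JQ1. The median level was 12.4 CPM with a neighbour and 18.4 CPM without one. Differences between these classes were not tested.

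Neighbours did not always move together. Of 31 pairs of adjacent members within 200 kb, both genes fell in 1 pair after RG6146 and in 3 pairs after JQ1, and both rose in 0 pairs with either compound. The pair that fell with both compounds was Zfp329 and Zfp110 on chromosome 7, which lie 15902 bases apart. One gene fell and the other rose in 1 pair after RG6146 and in 2 pairs after JQ1. The pair with opposite calls under both compounds was Zfp212 and Zfp783 on chromosome 6, with 10531 bases between them. The second such pair after JQ1 was Zfp692 and Zfp672 on chromosome 11, at 486 bases. These pairs were chosen after their values were seen, and Zfp692 fell by 0.58 after RG6146 and by 0.60 after JQ1. The RG6146 call of Zfp692 ended without RG6146 replicate 1 (-0.45), RG6146 replicate 2 (-0.46), DMSO replicate 2 (-0.59) or DMSO replicate 3 (-0.51), and the JQ1 call without any JQ1 replicate (-0.65 to -0.52), DMSO replicate 2 (-0.61) or DMSO replicate 3 (-0.53).

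On chromosome 4, Zfp991, Zfp992 and Zfp993 share near-identical transcript ends, so their reads may be divided between copies. Zfp991 fell by 0.46 after RG6146 and by 0.59 after JQ1, and Zfp993 fell by 0.53 after RG6146 and by 0.55 after JQ1. Zfp992 had 5.91, 5.29 and 11.5 CPM under RG6146, 1.47, 2.61 and 7.29 CPM under JQ1, and 12, 4.81 and 0.717 CPM under DMSO. Its groups overlapped throughout and its spread was the widest of all members, so no direction could be read. These 3 genes were also chosen after their values were seen. In all, 14 members had a near-identical stretch in their last 500 transcript bases, 55 overlapped a gene on the opposite strand and 33 overlapped one on the same strand.

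Numbered Zfp genes below the threshold and other zinc finger families gave further counts. Of 62 tested genes under 5 CPM, 10 fell and 1 rose after RG6146, and 11 fell and 1 rose after JQ1. These are 16.1% and 1.61% after RG6146, and 17.7% and 1.61% after JQ1. Among all tested genes 13.5% fell and 12.5% rose after RG6146, and 15.4% fell and 13.6% rose after JQ1. The 62 genes had a median level of 2.84 CPM. At that level the filter before testing can keep a gene for 1 group alone, so these counts give no direction for the family. Of 31 tested Zbtb genes, 4 fell and 2 rose after RG6146, and 6 fell and 1 rose after JQ1. Of 9 tested Klf genes, 3 fell and 1 rose with each compound. In the Zscan family, 1 of 5 genes fell after RG6146 and 0 of 5 were called after JQ1, and in the Zkscan family of 6 tested genes 1 fell and 1 rose after RG6146 and 1 fell after JQ1.

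The direct comparison of the compounds called no member. RG6146 was set against JQ1 at the doses used, 2.5 µM and 1 µM, so dose and compound cannot be told apart. None of the 133 members passed edgeR's quasi-likelihood test, in which the lowest adjusted p among them was 0.999; 3 members had an unadjusted p below 0.05, and DESeq2 and limma-voom also called 0. Over all tested genes 0.00909% were called. The 95% interval of the difference reached 0.373 log2 units to either side for the median member, with no adjustment for the number of genes. Larger differences, such as those of Zfp654 and Zfp688 given next, were not called either.

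The 3 members with an unadjusted p below 0.05 were Zfp654, Zfp688 and Zfp703. The log2 difference of RG6146 minus JQ1 was 0.52 for Zfp654 (95% interval 0.15 to 0.90) and -0.23 for Zfp703 (-0.46 to -0.01). For Zfp688, chosen after its values were seen, it was -0.62 (-1.14 to -0.09). The RG6146 libraries lay above the JQ1 libraries for 12 members and below them for 6, where 5.41% and 4.52% of all tested genes did so. For Zfp827 the difference was -0.55 (-1.20 to 0.10) and for Zfp783 0.47 (-0.16 to 1.09), both wide, while for Zfp638 it was 0.07 (-0.13 to 0.27) and for Zfp346 -0.05 (-0.40 to 0.31).

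**Figure D4:**
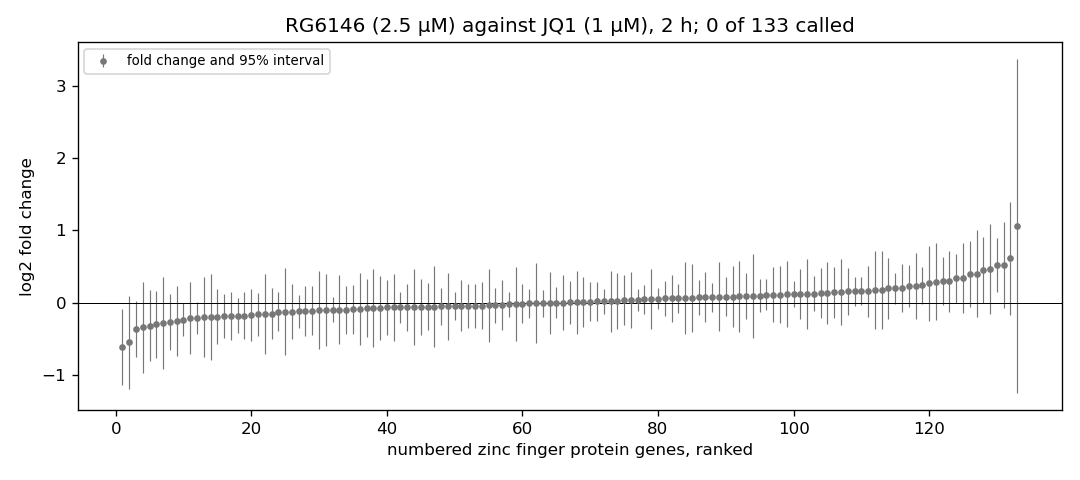
Log2 fold change of RG6146 (2.5 µM) against JQ1 (1 µM) for the 133 genes (vertical axis), ranked along the horizontal axis, with 95% intervals as bars. The intervals of nearly all genes cross 0, and none of the genes was called.

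The calls differed in how far they rested on settings. Of the 25 falls and 13 rises after RG6146, 17 and 5 kept their call without each of the 9 libraries in turn, and of the 33 falls and 14 rises after JQ1, 14 and 6 did. Scaling by the ERCC spike-in counts kept 8 falls and 3 rises after RG6146, and 9 falls and 1 rise after JQ1. ERCC counts per gene count fell from replicate 1 to replicate 3 in every group. The part of this trend in the calls lost under ERCC scaling was not tested. The falls kept with both compounds under ERCC scaling were those of Zfp1, Zfp65, Zfp160, Zfp236, Zfp638, Zfp783 and Zfp827, and the rise kept with both was that of Zfp346. Zfp507, Zfp654 and Zfp850 kept the RG6146 call, and Zfp26 and Zfp984 the JQ1 call. All other member calls described above, among them both of Zfp664, Zfp871 and Zfp809, ended under ERCC scaling. Of the calls of named members, ERCC scaling ended 17 of 28 after RG6146 and 19 of 29 after JQ1. With the replicate number also fitted as a block, ERCC scaling ended 4 and 3 of them. Both calls of Zfp664, Zfp871 and Zfp809 then held. DESeq2 kept 17 falls and 6 rises after RG6146, and 13 falls and 6 rises after JQ1, and it did not keep the JQ1 call of Zfp984 (adjusted p = 0.0585). Zfp783 and Zfp827 kept their falls with both compounds, and Zfp1 after RG6146, under every setting tried except the filter of 10 CPM, which left these 3 genes out. Zfp638 kept its fall after JQ1 and Zfp654 its rise after RG6146 under every setting tried, that filter included. No called member changed sign under any of these settings.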

How the data were processed

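The authors deposited a table of raw counts of 3′ mRNA reads per gene, not normalised, for 9 libraries from 500 ng of RNA each. Per the submitters' processing notes, the genome build was mm10, the aligner HISAT2 2.1.0 and the counter featureCounts from Subread; the notes also name cutadapt 1.7, FastQC 0.11.5, limma and bcl2fastq 2.17.1.14. Not given in the sources used here are the strand setting, the annotation release and the handling of reads with several matches. Reads of overlapping genes or near-identical copies may therefore be divided or lost.

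From the counts, the 92 ERCC spike-in rows were left out of library sizes and tests. Genes were filtered with filterByExpr (minimum count 10), which left 11002 of 43629, scaled by TMM and fitted in edgeR 4.0.16 (R 4.3.3) by a quasi-likelihood model of the 3 groups in all 9 libraries. All p-values of single genes come from edgeR's quasi-likelihood test with Benjamini-Hochberg adjustment over all tested genes, and a call is an adjusted p below 0.05. Levels are TMM-normalised CPM, marker sums and the member threshold plain CPM, and log2 fold changes are given with their standard errors. The fit was tested on simulated data, where it missed most of the smallest changes put in, and a part of its calls was false.

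A KRAB core was called where a translated GENCODE M21 protein matched at least 6 of 7 places of a pattern within its first 400 residues, and C2H2 fingers by their cysteine and histidine spacing. Near-identical ends were found with BLAST 2.17.0 (at least 75 bases at 95% identity). RefSeq promoters were matched by symbol. The named genes were members with known roles, the 10 largest rises and falls per compound with no overlap of libraries, those next to the threshold, the 5 most abundant and, from each partner list, up to 4 genes with the smallest p after JQ1; others are marked. Members, lists and rules were chosen with earlier results of these data known. Alternatives covered scaling, test, filters, threshold, replicate block and each library left out. The labels do not say what the replicate numbers mark. Replicates differed by more than sampling noise in every pair (chi-square per degree of freedom 6.87 to 17.0).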

Additional observations from a re-analysis of the deposited data

How the results depend on the processing

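More members were lower than higher in both comparisons with DMSO under every alternative tried, but the counts moved. Scaling by library size gave 5 higher members after RG6146 (median log2 fold change -0.224) and 7 after JQ1 (median -0.279). The higher share of the calls was then 12.2% after RG6146 and 14.9% after JQ1, against 34.2% and 29.8% with TMM. ERCC scaling called 11 members after RG6146 (3 higher, 8 lower, median -0.0568) and 10 after JQ1 (1 higher, 9 lower), and the RG6146 against JQ1 median was 0.0473. DESeq2 called 23 after RG6146 (6 higher) and 19 after JQ1 (6 higher, 13 lower). The test against a 1.5-fold change called 4 after RG6146 (1 higher, 3 lower) and 3 after JQ1 (0 higher, 3 lower). With a filter of 10 CPM on all genes the median was -0.0498 after RG6146 and -0.0732 after JQ1, with 21 lower after JQ1. A member threshold of 10 CPM gave medians of -0.0164 after RG6146 and -0.0393 after JQ1, with 19 lower after JQ1, and one of 2 CPM gave -0.148 and -0.193. Leaving out members with near-identical ends, chosen after seeing the data, gave a JQ1 median of -0.0996. The cause of the changes under other scalings and tests was not tested; the others rest on fewer or other genes.

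Leaving out one library at a time gave 29 to 35 calls after RG6146 (7 to 12 higher, 19 to 23 lower, median -0.131 to -0.0916) and 30 to 48 after JQ1 (8 to 15 higher, 19 to 33 lower, median -0.155 to -0.0961). For RG6146 against JQ1 every alternative called 0 members.

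With the replicate number as a block, 12 members rose and 23 fell after RG6146, and 12 rose and 30 fell after JQ1. It ended the RG6146 calls of Zfp217, Zfp296, Zfp609 and Zfp768 and the JQ1 calls of Zfp180, Zfp260, Zfp771, Zfp830 and Zfp984 (adjusted p = 0.0513), and no other member call. With the block and ERCC scaling it was 13 and 19 after RG6146 (median -0.0706) and 10 and 31 after JQ1, and the RG6146 against JQ1 median was 0.0471. Deviations of same-numbered libraries correlated at -0.135 to 0.138 after TMM scaling, which cannot show a shared spike-in effect. ERCC counts per gene count fell from replicate 1 to replicate 3 in every group. Under RG6146 they were 61354 beside 4490305 gene counts in replicate 1 and 45264 beside 4609612 in replicate 3. Under JQ1 they were 69998 beside 5031717 and 38360 beside 3964732, and under DMSO 76900 beside 5003725 and 44802 beside 3914375. What the number marks is not stated, so the main fit has no block.

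With 3 libraries of 1 clone in each group and 12957 to 19966 counts over all members, small changes of members near 5 CPM cannot be resolved.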
